A study of Mus musculus with 15 samples.

Results

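The genes described here encode the subunits of the oxidative phosphorylation system, with assembly factors that share their names. They were chosen by symbol: those starting with Nduf, Uqcr, Atp5, Cox4i, Cox5, Cox6, Cox7 or Cox8, and Sdha, Sdhb, Sdhc, Sdhd and Cyc1. Of 18193 genes with a probe set of a single symbol, 91 met the rule. Grouped by name, they comprised 36 complex I subunits, 8 complex I assembly factors (Ndufaf genes), 4 complex II, 9 complex III, 17 complex IV and 17 complex V genes. Where a gene had several probe sets, the brightest on average was taken, and 88 of the 91 were among the 13160 genes tested. The others, Cox7b2, Cox8b and Ndufb4, did not reach the array median on 3 arrays.

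The values are MAS5 signals from 15 Affymetrix mouse arrays of B cells from AM-14 mice, which carry a transgenic B cell receptor that binds self IgG. The study asks how stimulation through the B cell receptor, through Toll-like receptors or through both changes gene expression in these cells. There were 5 groups of 3 arrays. One was kept in media alone, one was given F(ab')2 goat anti-mouse IgM, which crosslinks the B cell receptor, and one the CpG oligodeoxynucleotide 1826, a ligand of TLR9. The fourth was given chromatin immune complexes made with the antibody PL2-3, whose IgG the AM-14 receptor binds and whose DNA is taken up with it. The fifth was named for anti-IgM and CpG together in its titles and descriptions, while its treatment field reads none; the titles were followed. Ages, doses and times of stimulation are not given in the sources used here. Whether arrays of 1 group stem from separate mice or cultures is not stated, so p-values measure the spread between arrays, which may be technical. In RNA from a whole culture, fewer cells of a type and less RNA per cell cannot be told apart.

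As background, complexes I and II take electrons from NADH and succinate and pass them to ubiquinone, complex III passes them on to cytochrome c, and complex IV, cytochrome c oxidase, gives them to oxygen. Complexes I, III and IV pump protons across the inner mitochondrial membrane, and complex V, the ATP synthase, uses the gradient to make ATP. A few subunits of complexes I, III, IV and V are encoded by mitochondrial DNA and made on mitochondrial ribosomes; the genes described here are nuclear. Resting B cells are small and of low metabolic rate, and lymphocytes that are activated grow and raise both glycolysis and respiration.

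Many nuclear genes of the respiratory chain carry sites for the transcription factors NRF1, GABP and YY1 near their start, so the promoters of the genes were searched for the core sequences of these factors on both strands. RefSeq promoter sequences of build GRCm38.p6, 250 bases before to 50 after each start, matched 74 of the 91 genes. The NRF1 core GCGCATGC was present in the promoters of 11 of the 74 (14.9%), against 3.05% of all 27025 genes in the table. The YY1 core AAGATGGCG was present in 7 of 74 (9.46%), against 1.64%, and the GABP core ACTTCCGG in 5 of 74 (6.76%), against 4.31%. Any of the 3 was present in 22 of 74 genes (29.7%), against 8.47% of all genes. Of 38 genes with a promoter that were called higher in at least 1 comparison against media, 15 held a core, and of 33 tested genes never called higher, 7 did. A match is a description of these letters and does not show that a factor binds there.

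Shown here are the promoters of 5 genes that rose and hold a core, and of Cox7a2l, which fell with every stimulus. Other genes that rose with every stimulus, such as Ndufab1, Sdhd and Uqcrfs1, held no core. Atp5h, Cox6a1 and Sdhb, never called higher, did hold one of the cores. Capitals mark the matches. In Ndufaf4 and Uqcrc1 the NRF1 core and its reverse complement overlap, and Ndufaf4 has a further match at its start. Uqcr11 has a GABP and an NRF1 match, Ndufs3 a GABP match at its start, and Ndufs7 a YY1 match 24 bases after its start. The Cox7a2l window holds none of the 3 cores.
Ndufaf4, chr4:24897833-24898132, plus strand: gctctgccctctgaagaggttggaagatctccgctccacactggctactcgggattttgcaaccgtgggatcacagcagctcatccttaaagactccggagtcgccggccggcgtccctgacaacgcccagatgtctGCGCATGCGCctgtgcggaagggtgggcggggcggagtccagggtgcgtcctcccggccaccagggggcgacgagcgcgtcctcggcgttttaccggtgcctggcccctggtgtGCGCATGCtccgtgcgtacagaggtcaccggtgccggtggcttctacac
Uqcrc1, chr9:108936398-108936697, plus strand: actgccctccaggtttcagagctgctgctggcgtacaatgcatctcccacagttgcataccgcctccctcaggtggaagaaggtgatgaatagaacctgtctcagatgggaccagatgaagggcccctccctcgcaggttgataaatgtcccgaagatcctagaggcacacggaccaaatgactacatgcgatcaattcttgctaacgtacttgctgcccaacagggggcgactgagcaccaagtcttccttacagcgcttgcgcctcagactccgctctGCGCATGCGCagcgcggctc
Uqcr11, chr10:80406772-80407071, minus strand: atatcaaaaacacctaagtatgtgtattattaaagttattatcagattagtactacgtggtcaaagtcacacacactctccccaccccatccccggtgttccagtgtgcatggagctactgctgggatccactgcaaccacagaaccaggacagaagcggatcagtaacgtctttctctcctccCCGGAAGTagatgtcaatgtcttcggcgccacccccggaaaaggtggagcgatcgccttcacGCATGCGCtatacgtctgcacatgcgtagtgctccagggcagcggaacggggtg
Ndufs3, chr2:90904672-90904971, minus strand: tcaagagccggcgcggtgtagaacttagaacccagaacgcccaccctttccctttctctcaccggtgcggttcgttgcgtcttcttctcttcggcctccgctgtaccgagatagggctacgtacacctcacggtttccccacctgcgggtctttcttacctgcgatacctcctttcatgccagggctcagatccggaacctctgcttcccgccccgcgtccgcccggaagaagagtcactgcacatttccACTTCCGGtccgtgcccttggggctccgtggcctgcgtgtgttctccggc
Ndufs7, chr10:80249199-80249498, plus strand: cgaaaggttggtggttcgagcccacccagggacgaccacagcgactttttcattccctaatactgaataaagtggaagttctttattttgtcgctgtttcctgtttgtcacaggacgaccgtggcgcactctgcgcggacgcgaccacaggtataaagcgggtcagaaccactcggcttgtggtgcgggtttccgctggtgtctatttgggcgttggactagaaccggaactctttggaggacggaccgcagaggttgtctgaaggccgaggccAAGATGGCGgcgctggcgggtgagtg
Cox7a2l, chr17:83514284-83514583, minus strand: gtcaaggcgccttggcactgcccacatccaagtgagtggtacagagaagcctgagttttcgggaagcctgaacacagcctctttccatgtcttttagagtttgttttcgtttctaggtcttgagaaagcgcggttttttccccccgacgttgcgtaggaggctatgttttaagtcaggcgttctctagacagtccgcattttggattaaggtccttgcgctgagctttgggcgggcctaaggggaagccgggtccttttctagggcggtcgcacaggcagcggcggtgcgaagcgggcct

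Array medians lay between 263 and 514 signal units. RNA of replicates 1 and 2 was labelled with a kit from Enzo and RNA of replicate 3 with a kit from Ambion, per the labels, and the model held a term for the kit. Xist set the 3 anti-IgM+CpG arrays apart, at 321 to 589 against 4252 to 15543 on the 12 others. Beta-actin's 5' control probe set, as a ratio to its 3' set, was 0.105 to 0.193 on these 3 arrays, 0.108 to 0.201 on the 4 other Ambion arrays and 0.335 to 0.747 on the 8 other Enzo arrays. Some results of that group are therefore also given as actin-based values. For these, each array's kit was assigned by this ratio (at or above 0.25 or below) in place of the label. These values concern the labelling alone. Whatever else sets the 3 arrays apart, as Xist does, cannot be told apart from the treatment in any anti-IgM+CpG change. Of B cell markers, Cd74 had at least 87049 on every array and Ms4a1, Cd79a and Cd79b at least 4753. The summed signal of 7 B cell markers was 297990 to 466050 in media and 134390 to 222300 on the stimulated arrays, and 5, 4, 4 and 5 of the 7 fell with anti-IgM, CpG, PL2-3 and anti-IgM+CpG. That of 10 myeloid markers was 116350 to 247750 in media, 47904 to 96592 with single stimuli and 13577 to 148780 with anti-IgM+CpG, and 2, 3, 1 and 7 of the 10 fell. Sums were taken likewise over 7 T cell, 5 NK cell and 4 erythroid markers: T cell markers 5711 to 7479 in media against 2142 to 4479 on the stimulated arrays, NK cell markers 5352 to 6839 against 1654 to 5204, and erythroid markers 42557 to 73966 against 15613 to 56006. Sums of 5 plasma cell markers were 54890 to 136690 in media and 38877 to 147510 after stimulation. No marker was at 0 on any array. The part of these cell types in the changes described was not tested.

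Stimulated cells had higher signals for a share of the oxidative phosphorylation genes, most of them of complexes I, III and V, and each stimulus raised more of them than it lowered. Changes are log2 values of the signal plus 75.2 with limma's SE (n = 3 arrays per group). The words rose and fell are used only for a limma adjusted p under 0.05 over all 13160 genes. Anti-IgM raised 16 of the 88 tested genes and lowered 3, where 10.1% of all genes rose and 9.32% fell (19.5% together). CpG raised 23 and lowered 7, with 13.1% and 16.9% of all genes (30.1% together). PL2-3 raised 20 and lowered 2, with 12.4% and 13.5% (25.9% together). Anti-IgM+CpG raised 45 and lowered 6, with 17.2% and 24.8% (41.9% together). The members' median change was 0.12 with anti-IgM, 0.29 with CpG, 0.21 with PL2-3 and 0.45 with anti-IgM+CpG, against medians over all genes tested of -0.13, -0.21, -0.10 and -0.29. Across the 4 comparisons, 14 members rose in all 4, Cox7a2l alone fell in all 4, 35 were never called, and none was called in opposite directions. The 4 comparisons share the media arrays, and the same counts across comparisons over all genes are not given here.

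**Figure D1:**
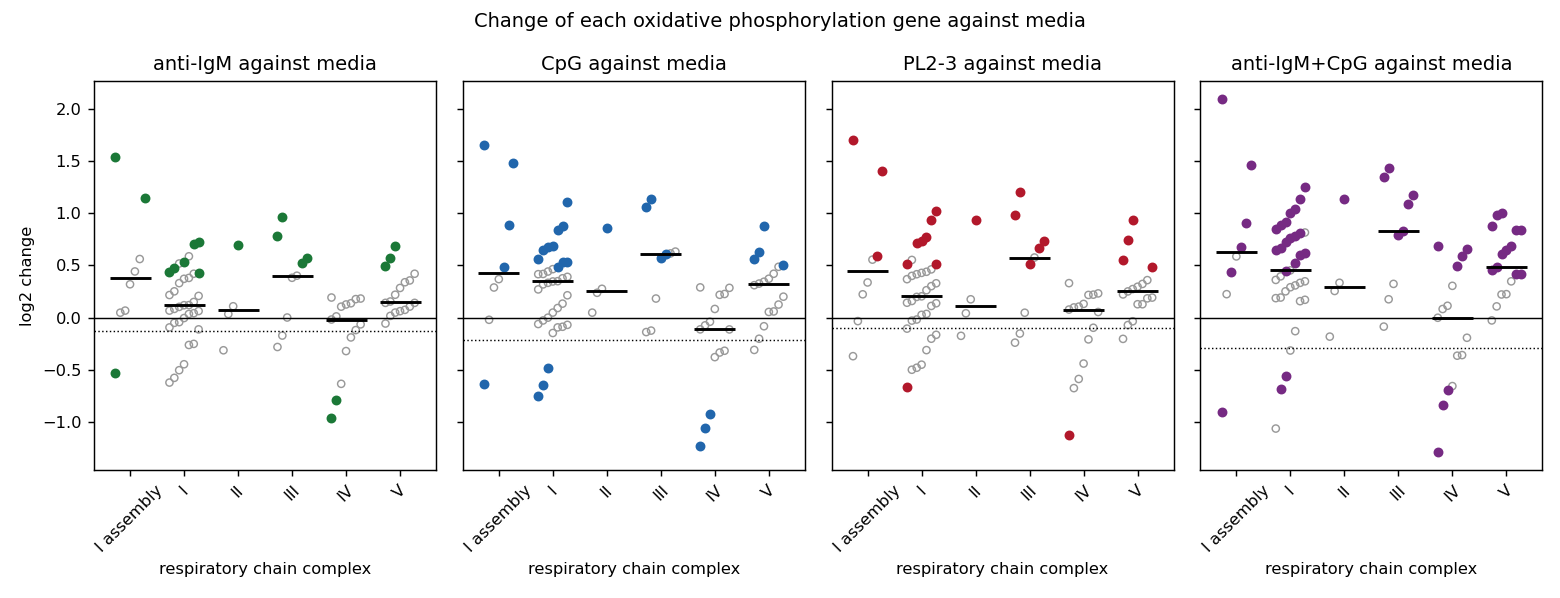
Log2 change (y axis) of each tested oxidative phosphorylation gene in 4 stimuli against media, by complex (x axis). Filled points passed an adjusted p of 0.05, open points did not, bars are medians of a complex and the dotted line is the median of all genes tested. Complex III has the highest median of the 5 complexes in every panel, and the complex IV median stays between -0.11 and 0.08. The complex IV median is taken over 15 genes, among them the tissue-restricted forms Cox4i2, Cox6a2, Cox6b2, Cox7a1 and Cox8c.

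Most of these genes were read by bright probe sets, and 70 of the 91 had a mean signal above the 90th percentile. Among the 70, the share that rose was 21.4% with anti-IgM, 27.1% with CpG, 27.1% with PL2-3 and 58.6% with anti-IgM+CpG. Among the 1750 other genes above that percentile it was 32.9%, 39.7%, 37.7% and 50.6%. The share that fell was 1.43%, 5.71%, 2.86% and 4.29% of the members and 8.4%, 13%, 12% and 13.8% of the other bright genes. The medians were 0.15, 0.31, 0.23 and 0.51 for the members and 0.23, 0.30, 0.27 and 0.45 for the other bright genes, so at this brightness the members' medians lay close to those of other genes. The differences between members and other bright genes were not tested. For anti-IgM+CpG these values rest on the labelled kits, and no actin-based ones are given for the bright genes. Actin-based, the median over all tested members was 0.19 in place of 0.45.

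The arrays of a group did not move alike. The members' median on each array, relative to the mean of the media arrays, was -0.05, -0.11 and 0.15 in media. It was 0.11, -0.11 and 0.49 with anti-IgM, 0.15, 0.19 and 0.51 with CpG, 0.12, -0.07 and 0.59 with PL2-3, and 0.59, 0.39 and 0.44 with anti-IgM+CpG. The Ambion arrays were the highest of the 4 groups without the combination, and replicates 1 and 2 of anti-IgM and of PL2-3 did not exceed media replicate 3. In the model the members' median difference of Ambion minus Enzo arrays was 0.33, positive for 75 of 88 members, where all genes had -0.04. Within the Enzo arrays (n = 2 per group) the members' median change against media was 0.09 with anti-IgM, 0.25 with CpG, 0.14 with PL2-3 and 0.55 with anti-IgM+CpG. Within the Ambion arrays (n = 1) it was 0.29, 0.32, 0.39 and 0.28.

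**Figure D2:**
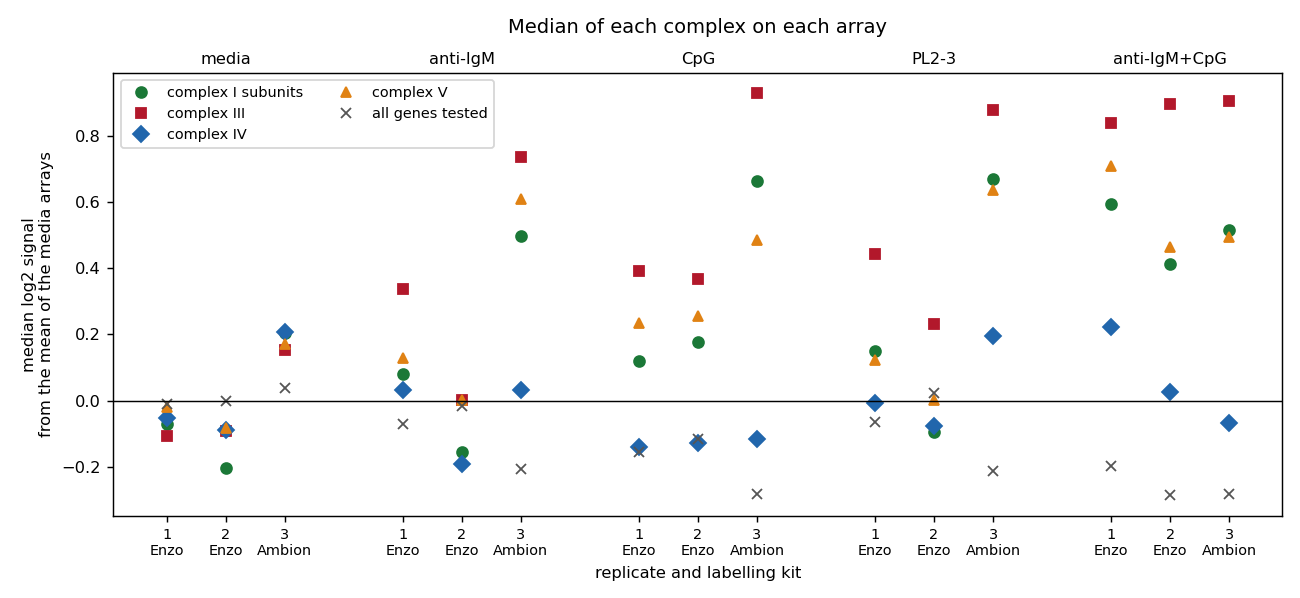
Median log2 signal of the genes of complexes I, III, IV and V and of all genes tested (y axis), relative to the mean of the media arrays, on each of 15 arrays (x axis, with group and labelling kit). Complex III is above every media array on each stimulated array but anti-IgM replicate 2 (0.00), while complex IV is above every media array on anti-IgM+CpG replicate 1 alone (0.22).

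The count of called members rested on few arrays with anti-IgM: 19 fell to 9 without media replicate 2, to 4 without media replicate 3, to 8 without anti-IgM replicate 1 and to 5 without anti-IgM replicate 3. With PL2-3, 22 fell to 14 without PL2-3 replicate 3. With CpG (30 called) and anti-IgM+CpG (51), no array left out moved the count by over 1.5 times. Actin-based, anti-IgM+CpG raised 20 members and lowered 8, with a median of 0.19 where all genes had -0.20. The shares of all genes that rose and fell in the actin-based fit are not given here. This holds as well for the actin-based counts by complex and by list below.

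The largest rise among the members was that of the complex I assembly factor Ndufaf6 with each stimulus. Assembly factors help build complex I and are not part of the finished enzyme. Of 8, 2 rose and 1 fell with anti-IgM, 4 rose and 1 fell with CpG, 3 rose with PL2-3, and 5 rose and 1 fell with anti-IgM+CpG (3 and 1 actin-based, and 3 higher without media replicate 3 or anti-IgM+CpG replicate 2). The signals of Ndufaf6 were 519, 391 and 529.5 in media, 1253, 1157 and 2473 with anti-IgM, 1599, 1235 and 2314 with CpG, 1444, 1721 and 2053 with PL2-3 and 1798, 3006 and 2214 with anti-IgM+CpG. Every stimulated array was above every media array. Ndufaf6 rose by 1.55 ± 0.25, 1.66 ± 0.25, 1.70 ± 0.25 and 2.10 ± 0.25 with anti-IgM, CpG, PL2-3 and anti-IgM+CpG (limma adjusted p from 1.01e-05 to 0.000547), a fold of 2.92 to 4.29. The signals of Ndufaf4 were 7598, 6945 and 2663 in media, 14329, 11248 and 9741 with anti-IgM, 17417, 13292 and 13782 with CpG, 18857, 13130.0 and 11023 with PL2-3 and 17090.0, 12370.0 and 14454 with anti-IgM+CpG. The groups did not overlap with media, where replicate 3 was the lowest array. Ndufaf4 rose by 1.15 ± 0.25, 1.49 ± 0.25, 1.41 ± 0.25 and 1.47 ± 0.25 (adjusted p from 0.000258 to 0.00443), and its other probe set gave 1.35, 1.27, 1.38 and 1.78. Both genes kept their calls under every alternative tried, with Ndufaf4 as low as 0.76 with anti-IgM, without media replicate 3. Ndufaf8 rose with CpG (0.89 ± 0.19), PL2-3 (0.59 ± 0.19) and anti-IgM+CpG (0.90 ± 0.19), and the PL2-3 call was lost without either of media replicates 2 and 3 or PL2-3 replicates 1 and 3 (values of 0.42 to 0.78 over all alternatives). Ndufaf3 went the other way, by -0.53 ± 0.18 with anti-IgM, -0.64 ± 0.18 with CpG and -0.90 ± 0.18 with anti-IgM+CpG. Its signals were 2176, 2492 and 3067 in media, 1715, 1684 and 1832 with anti-IgM, 1593, 1789 and 1476 with CpG, 2042, 1885 and 1951 with PL2-3 and 1476, 1222 and 1307 with anti-IgM+CpG, so that every stimulated array was below every media array. With arrays shifted to the same median, no Ndufaf3 call remained (-0.29 with anti-IgM). For Ndufaf3, anti-IgM against media, the call was also lost with the replicate number as a block (limma adjusted p = 0.0518), and without media replicates 2 or 3 or any 1 anti-IgM array, and the CpG call of Ndufaf3 without media replicate 3 or CpG replicate 3.

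Among the complex I subunits, which form the NADH dehydrogenase, 6 of 35 rose and none fell with anti-IgM; 12 of the 35 had an unadjusted p under 0.05. With CpG 10 rose and 3 fell, with PL2-3 7 rose and 1 fell, and with anti-IgM+CpG 17 rose and 2 fell (7 and 4 actin-based). The count of rises with anti-IgM was 3 without media replicate 2, 2 without anti-IgM replicate 1, and 1 without media replicate 3 or anti-IgM replicate 3, and that with CpG was 6 without CpG replicate 3. The falls with CpG were 1 without media replicate 3 or CpG replicates 2 or 3, and those with anti-IgM+CpG 0 without anti-IgM+CpG replicate 3 and 1 without media replicate 3 or anti-IgM+CpG replicate 2. Ndufab1 encodes the mitochondrial acyl carrier protein, which is also a subunit of complex I. Its signals were 9831, 9354 and 10258 in media, 14895, 13547 and 20344 with anti-IgM, 19963, 20755 and 22979 with CpG, 18562, 17844 and 24186 with PL2-3 and 23520.0, 22097 and 24950.0 with anti-IgM+CpG. No stimulated array overlapped media. Ndufab1 rose by 0.70 ± 0.13, 1.11 ± 0.13, 1.02 ± 0.13 and 1.25 ± 0.13 (adjusted p from 2.85e-06 to 0.00137). Of its 4 dimmer probe sets, some went the other way (-0.28 to -1.07 with anti-IgM+CpG), and the mean over its probe sets was called in none of the 4 comparisons. Ndufs3 and Ndufs7 are core subunits of the arm that hands electrons to ubiquinone. The signals of Ndufs3 were 9052, 10064 and 13137 in media, 12659, 10558 and 19857 with anti-IgM, 19238, 16151 and 24381 with CpG, 16035, 12985 and 25883 with PL2-3 and 24863, 21439 and 24075 with anti-IgM+CpG. Ndufs3 changed by 0.38 ± 0.17 with anti-IgM (adjusted p = 0.139), where the groups overlapped, and rose by 0.88 ± 0.17, 0.72 ± 0.17 and 1.14 ± 0.17 with CpG, PL2-3 (where PL2-3 replicate 2 lay within the media range) and anti-IgM+CpG (0.71 actin-based with anti-IgM+CpG). Ndufs7 rose by 0.54 ± 0.16, 0.65 ± 0.16, 0.77 ± 0.16 and 1.0003 ± 0.16, and its other bright probe set gave 0.04, 0.22, 0.32 and 0.69. With anti-IgM the Ndufs7 call was lost without media replicate 3, anti-IgM replicate 1 or anti-IgM replicate 3 (as low as 0.29). Ndufb2, an accessory subunit of the membrane arm, rose by 0.72 ± 0.18, 0.84 ± 0.18, 0.94 ± 0.18 and 1.04 ± 0.18. Its anti-IgM call was lost without media replicate 3 or anti-IgM replicate 3. With the mean of its probe sets Ndufb2 was not called with CpG (0.32) or anti-IgM+CpG (0.37); the dimmest of its 3 probe sets gave -0.44 and -0.99 there, and the other 0.57 and 1.04.

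Not every core subunit moved. Ndufs1, which carries iron-sulfur clusters of the electron entry arm, rose with CpG (0.68 ± 0.17) and anti-IgM+CpG (0.76 ± 0.17) and had 0.33 ± 0.17 with anti-IgM and 0.40 ± 0.17 with PL2-3. Ndufv1, which binds NADH, changed by 0.06 ± 0.15, 0.21 ± 0.15, 0.14 ± 0.15 and 0.33 ± 0.15 and was not called. Ndufv1 signals ran from 7239 to 8695 in media and from 6848 to 11151 after stimulation. The subunits that fell were accessory ones. Ndufv3 changed by -0.65 ± 0.22 with CpG, -0.66 ± 0.22 with PL2-3 and -0.69 ± 0.22 with anti-IgM+CpG, Ndufb11 by -0.48 ± 0.17 with CpG and -0.56 ± 0.17 with anti-IgM+CpG, and Ndufa13 by -0.75 ± 0.20 with CpG. With arrays shifted to the same median none of these was called, and Ndufb11 was 0.03 with anti-IgM+CpG. The Ndufb11 call with CpG was also lost without any 1 of the media and CpG arrays, and that with anti-IgM+CpG without anti-IgM+CpG replicate 3, with changes of -0.40 to -0.51 in these fits. The Ndufv3 signals on media replicates 1, 2 and 3 were 13839, 13783 and 22706, and leaving out media replicate 3 ended its call in each comparison (-0.50 with anti-IgM+CpG). Ndufa4, named and counted here with complex I but since assigned to complex IV, rose in all 4 comparisons (0.43 ± 0.14, 0.54 ± 0.14, 0.51 ± 0.14 and 0.62 ± 0.14). Its paralog Ndufa4l2, a gene known to be induced by hypoxia, had signals of 34 to 585 over the 15 arrays and was not called.

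In complex II, succinate dehydrogenase, 1 of the 4 subunits rose with each stimulus, Sdhd (actin-based, 1 rose and 1 fell with anti-IgM+CpG). Sdhd, a membrane anchor, had signals of 6515, 5859.9 and 5149 in media, 9719.9, 6922 and 12509 with anti-IgM, 9254, 9514 and 13617 with CpG, 10597, 8613 and 15362 with PL2-3 and 13091, 11470.0 and 14221 with anti-IgM+CpG. Every stimulated array was above every media array, and the Ambion array was the highest with single stimuli. Sdhd rose by 0.69 ± 0.20, 0.86 ± 0.20, 0.94 ± 0.20 and 1.14 ± 0.20 (adjusted p from 0.000247 to 0.0196). Its dimmer probe set gave 0.39, -0.36, 0.36 and 0.75. The anti-IgM call of Sdhd was lost without media replicate 3 or anti-IgM replicates 1 or 3 (as low as 0.40). The other 3 were not called: Sdha, the catalytic flavoprotein, had -0.31 ± 0.20, 0.05 ± 0.20, -0.17 ± 0.20 and -0.18 ± 0.20, but a dimmer Sdha probe set (mean signal 6174 against 11907) gave -0.94, -0.77, -0.98 and -0.69, without a test. Sdhb, the iron-sulfur subunit, had 0.03 to 0.26, and Sdhc, the other anchor, 0.11 to 0.33.

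Complex III had the highest medians of the 5 complexes, 0.40 with anti-IgM, 0.61 with CpG, 0.58 with PL2-3 and 0.83 with anti-IgM+CpG. Of its 9 genes 4, 4, 5 and 6 rose (5 actin-based with anti-IgM+CpG) and none fell. With anti-IgM 2 rose without any 1 of media replicates 1 and 2 and anti-IgM replicates 1 and 3, and 1 without media replicate 3, while without PL2-3 replicate 3 the PL2-3 count was 3. Uqcrfs1 encodes the Rieske iron-sulfur protein, which takes electrons from ubiquinol. Its signals were 10995, 11118 and 8095 in media, 15737, 14661 and 14310.0 with anti-IgM, 22800.0, 21009 and 19040.0 with CpG, 17833, 14811 and 15237 with PL2-3 and 17871, 16072 and 18055 with anti-IgM+CpG. All stimulated arrays exceeded all media arrays, and the CpG arrays were the highest 3 of the 15. Uqcrfs1 rose by 0.58 ± 0.14, 1.06 ± 0.14, 0.67 ± 0.14 and 0.79 ± 0.14 (adjusted p from 4.04e-05 to 0.00795). Without media replicate 3 its anti-IgM call was lost. Uqcrq, a small subunit next to cytochrome b, had signals of 13126, 11690.0 and 13904 in media, 22500.0, 18717 and 38312 with anti-IgM, 25567, 26249 and 34105 with CpG, 27170.0, 21902 and 44594 with PL2-3 and 39036, 30173 and 36317 with anti-IgM+CpG. Uqcrq rose by 0.97 ± 0.19, 1.14 ± 0.19, 1.21 ± 0.19 and 1.44 ± 0.19, a fold of 1.96 to 2.71. With the mean of its probe sets, of which the others are dim, it was called with PL2-3 alone (0.58). The core protein Uqcrc1 rose in all 4 (0.53 ± 0.16 to 1.09 ± 0.16), and cytochrome c1, Cyc1, rose with CpG (0.57 ± 0.14), PL2-3 (0.52 ± 0.14) and anti-IgM+CpG (0.83 ± 0.14). The small subunit Uqcr11 rose with anti-IgM (0.78 ± 0.26), PL2-3 (0.99 ± 0.26) and anti-IgM+CpG (1.35 ± 0.26, and 0.58 actin-based). Leaving out any array but anti-IgM replicate 2 ended its anti-IgM call (0.65 to 1.03 over all alternatives), and leaving out PL2-3 replicate 3 ended its PL2-3 call. Uqcrb, Uqcrc2 and Uqcrh were not called in any of the 4 comparisons, with values between -0.28 and 0.32. For Uqcrc2 the probe sets disagreed: another, nearly as bright (mean signal 16107 against 18524), gave 0.50, 0.64, 0.60 and 1.04, without a test, against -0.17, 0.18, -0.15 and 0.18 for the one used.

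Of the 15 tested complex IV genes with Cox names, none rose with a single stimulus, while Ndufa4, counted above by its name, rose with each; 2 fell with anti-IgM, 3 with CpG and 1 with PL2-3. The falls were 13.3%, 20% and 6.67% of the 15, where 9.32%, 16.9% and 13.5% of all genes fell. In these comparisons 2, 3 and 3 of the 15 had an unadjusted p under 0.05. With anti-IgM+CpG 4 rose and 3 fell (26.7% and 20%, against 17.2% and 24.8% of all genes), and actin-based none rose and 2 fell. The count of rises was 2 without media replicate 2 and 1 without anti-IgM+CpG replicate 1, and that of falls 1 without media replicates 1 or 3 or anti-IgM+CpG replicates 2 or 3. With anti-IgM the count of falls was 0 without media replicate 3 or anti-IgM replicate 3, and 1 without media replicates 1 or 2 or anti-IgM replicate 1. The genes that fell were Cox7a2l, Cox6a2 and Cox6b2. Cox7a2l encodes a factor that joins complexes III and IV in supercomplexes. Its signals were 16209, 13297 and 25429 in media, 10415, 7757 and 9089 with anti-IgM, 8237, 7177 and 10086 with CpG, 6474, 7041 and 11271 with PL2-3 and 15296, 8793 and 9596 with anti-IgM+CpG. With single stimuli every array was below every media array, and anti-IgM+CpG replicate 1 lay within the media range. Cox7a2l changed by -0.96 ± 0.24, -1.06 ± 0.24, -1.13 ± 0.24 and -0.69 ± 0.24 (adjusted p from 0.0022 to 0.0281). Its other 2 probe sets, without a test, gave -0.92 to -1.14 with single stimuli and -0.69 and -0.99 with anti-IgM+CpG. Media replicate 3 was the highest array, and without it the change was not called with anti-IgM or with anti-IgM+CpG (-0.50). It was not called either without anti-IgM replicate 3, or, for anti-IgM+CpG, without media replicate 1 or anti-IgM+CpG replicates 2 or 3. Shifted to the same median, the arrays gave a call with PL2-3 alone.

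Tissue-restricted forms of complex IV subunits were among those that fell or were not called. Cox6a2, the form of striated muscle, had signals of 1818, 1892 and 1356 in media, 1119, 1455 and 485 with anti-IgM, 1014, 879.7 and 675 with CpG, 959.6, 1583 and 837 with PL2-3 and 893, 531 and 541 with anti-IgM+CpG. Cox6a2 changed by -0.79 ± 0.27 with anti-IgM, -0.92 ± 0.27 with CpG and -1.29 ± 0.27 with anti-IgM+CpG, and by -0.59 ± 0.27 with PL2-3, which was not called. For Cox6a2, anti-IgM against media, the call was lost with the replicate number as a block (limma adjusted p = 0.0587) and with any array but anti-IgM replicate 2 left out. Leaving out media replicate 3 or CpG replicate 2 ended the CpG call. Its ubiquitous paralog Cox6a1 had changes of -0.11 to 0.08, none called, and 0.05 to 0.63 by its dimmer probe set. Cox6b2, the form of testis, fell with CpG (-1.23 ± 0.32) and with anti-IgM+CpG (-0.84 ± 0.32), the latter lost under most alternatives, while Cox6b1 had -0.04 to 0.08, and 0.14 to 0.35 by its dimmer probe set. Cox5a had -0.11 to 0.19, none called, but the probe sets of Cox5a differed: another, nearly as bright (mean signal 47210 against 51549), gave 0.53, 0.61, 0.68 and 0.68, without a test, and a dimmer one -0.25 to 0.17. Cox7a2 had 0.08 to 0.30, none called, and 0.21 to 0.59 by its dimmer probe set. With anti-IgM+CpG, Cox5b (0.68 ± 0.22), Cox8a (0.66 ± 0.21), Cox6c (0.59 ± 0.17) and Cox4i1 (0.50 ± 0.16) rose. Actin-based, Cox5b (0.23), Cox8a (0.19) and Cox6c (0.24) were not called, and Cox4i1 did not rise either. Cox5b also lost its call without media replicate 2 or anti-IgM+CpG replicate 1, and Cox8a without media replicate 3 or anti-IgM+CpG replicates 1 or 2. Cox4i2, the form of lung, and Cox7a1, of muscle, were tested and not called, with signals of 232 to 672 and of 108 to 609, and Cox8c, of testis, was not called either.

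In complex V, 3 of 17 genes rose with anti-IgM, 4 with CpG, 4 with PL2-3 and 12 with anti-IgM+CpG (4 actin-based), and none fell. The anti-IgM count was 0 without media replicate 2, media replicate 3 or anti-IgM replicate 3, and 1 without anti-IgM replicate 1. The PL2-3 count was 2 without media replicate 1 and 1 without media replicate 3 or PL2-3 replicate 3, and that with anti-IgM+CpG was 7 without its replicate 1. Atp5mpl, a small protein of the membrane part, had signals of 13017, 11358 and 11797 in media, 16297, 13929 and 21662 with anti-IgM, 18107, 17589 and 20454 with CpG, 16517, 14704 and 22601 with PL2-3 and 22171, 20071 and 22690.0 with anti-IgM+CpG. Stimulated arrays were all above the media arrays. Atp5mpl rose by 0.50 ± 0.15, 0.63 ± 0.15, 0.55 ± 0.15 and 0.84 ± 0.15 (adjusted p from 0.000355 to 0.0293), and of its calls with single stimuli that with CpG was kept under every alternative. The anti-IgM call was lost without media replicates 2 or 3 or anti-IgM replicates 1 or 3, and the PL2-3 call without media replicate 3 or PL2-3 replicate 3. Atp5o, which encodes the stalk protein OSCP, rose by 0.57 ± 0.17, 0.56 ± 0.17, 0.48 ± 0.17 and 0.99 ± 0.17. Its signals were 10880.0, 10715 and 15597 in media, 14908, 15300.0 and 26192 with anti-IgM, 15197, 15443 and 25119 with CpG, 13307, 14651 and 25683 with PL2-3 and 22433, 26477 and 24100.0 with anti-IgM+CpG, so that with anti-IgM, CpG and PL2-3 the groups overlapped media replicate 3, and the Ambion array was the highest. The Atp5o call with anti-IgM was lost without any 1 media array or anti-IgM replicate 3, and that with CpG without media replicate 3 or CpG replicate 3 and with the mean of its probe sets (0.26), the dimmer of which gave -0.04 with CpG. The catalytic beta subunit, Atp5b, rose with CpG (0.50 ± 0.14) and anti-IgM+CpG (0.46 ± 0.14) and had 0.34 ± 0.14 and 0.32 ± 0.14 with anti-IgM and PL2-3. Of the 3 genes for the same c subunit of the rotor ring, Atp5g1 rose with CpG (0.88 ± 0.21), PL2-3 (0.74 ± 0.21) and anti-IgM+CpG (1.01 ± 0.21), while Atp5g2 (0.02 to 0.33) and Atp5g3 (0.11 to 0.35) were not called. The Atp5g1 call with PL2-3 was lost without any of media replicates 1 and 3 and PL2-3 replicates 1 and 3, and the mean over its probe sets, of which the other is dim, was not called. Actin-based, Atp5g1 was not called with anti-IgM+CpG.

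**Figure D3:**
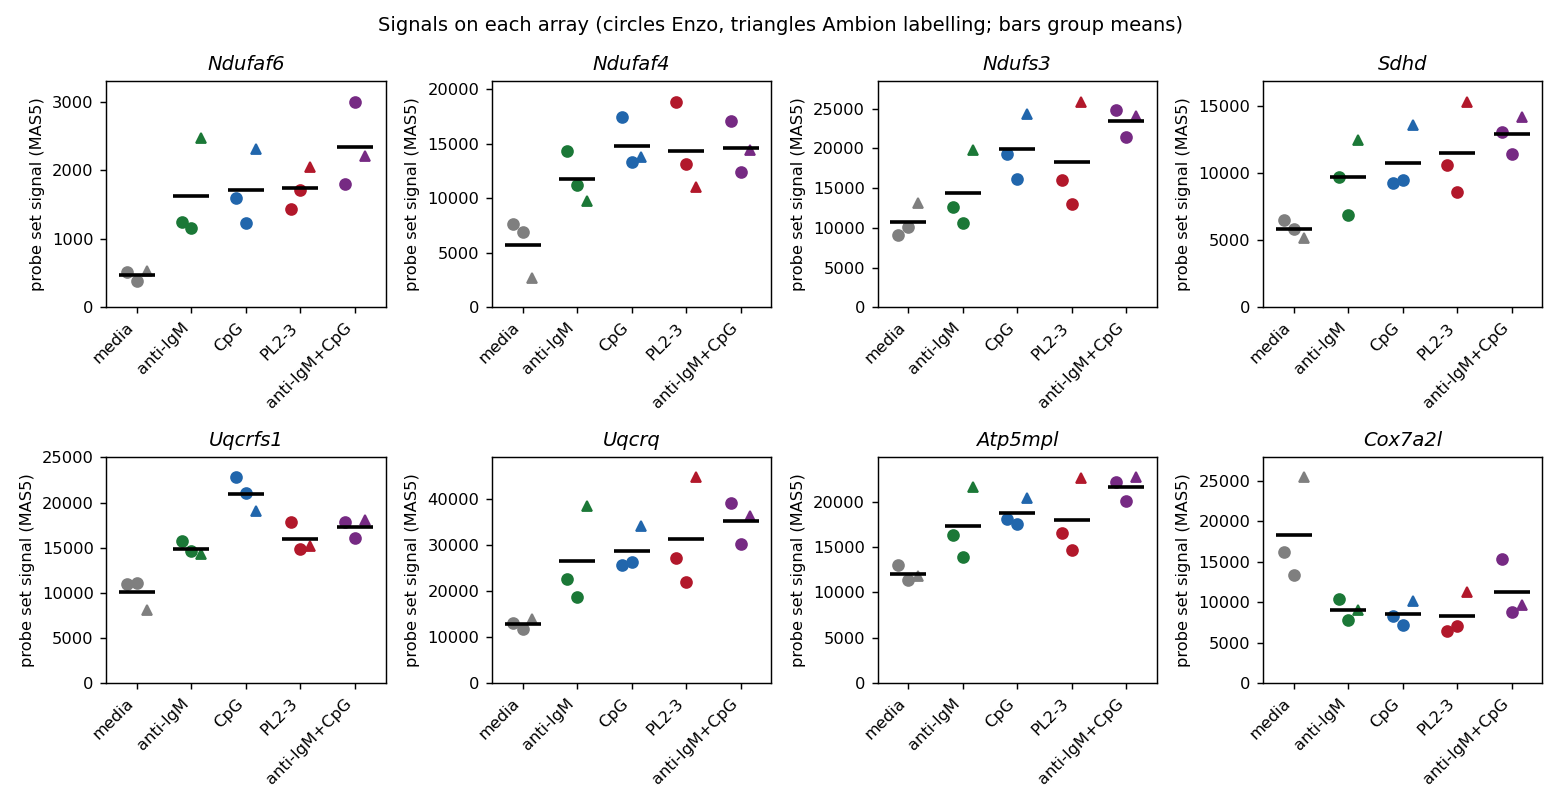
MAS5 signal (y axis, from 0) of 8 oxidative phosphorylation genes on each array of the 5 groups (x axis); circles are Enzo and triangles Ambion arrays, and bars are group means. Every stimulated array lies above every media array in 6 panels; Ndufs3 overlaps with anti-IgM and PL2-3, and Cox7a2l lies below media with the single stimuli.

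ND5 and Atpif1 are outside the rule, and ND5 was picked with results of these data known. ND5, a complex I subunit encoded by mitochondrial DNA, had signals of 39993, 40560.0 and 28210.0 in media, 17125, 42002 and 25991 with anti-IgM, 27949, 33508 and 29215 with CpG, 22361, 32506 and 22516 with PL2-3 and 11956, 21043 and 19833 with anti-IgM+CpG. ND5 changed by -0.43 ± 0.28, -0.25 ± 0.28 and -0.49 ± 0.28 with anti-IgM, CpG and PL2-3, none called, and fell by 1.06 on the log2 scale with anti-IgM+CpG (SE 0.28). Atpif1, which encodes the inhibitor of the ATP synthase, had signals of 8160.0, 7415 and 13834 in media, 7859, 8007 and 8166 with anti-IgM, 3134, 4532 and 4263 with CpG, 4306, 4533 and 6231 with PL2-3 and 7846, 5399.8 and 4499 with anti-IgM+CpG. Atpif1 changed by -1.25 ± 0.24 with CpG, -0.92 ± 0.24 with PL2-3 and -0.70 ± 0.24 with anti-IgM+CpG, and by -0.23 ± 0.24 with anti-IgM, which was not called. It was lower with CpG than with anti-IgM by a tested -1.01 ± 0.24 (limma adjusted p = 0.0146). Atpif1 had 3 probe sets, and only the brightest is reported. No actin-based values are given for ND5 or Atpif1, so their anti-IgM+CpG changes rest on the labelled kits.

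The genes called with each stimulus were compared. With anti-IgM+CpG 45 members rose, and with any of the 3 single stimuli 25 did. Of the 25, 24 were among the 45 (53.3% of the 45 and 96% of the 25). These comparisons share the media arrays, and the same overlap over all genes is not given here. Whether the combination differed from a single stimulus was not tested for these genes. The 14 that rose in all 4 were the assembly factors Ndufaf4 and Ndufaf6, the complex I genes Ndufa4, Ndufa12, Ndufab1, Ndufb2, Ndufb5 and Ndufs7, Sdhd, the complex III genes Uqcrc1, Uqcrfs1 and Uqcrq, and Atp5mpl and Atp5o. Ndufb5 changed by 0.48, 0.48, 0.51 and 0.85 by the probe set used. Another, nearly as bright (mean signal 12033 against 12886), gave 0.12, -0.24, 0.07 and 0.48, without a test. Among members called in either direction that had other probe sets, a probe set of opposite sign was present for 1 of 10 with anti-IgM, 7 of 14 with CpG, 3 of 11 with PL2-3 and 8 of 26 with anti-IgM+CpG.

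Between stimuli few members were called. PL2-3 against anti-IgM gave no called member by limma, where 0.691% of all genes were called (0.342% higher and 0.35% lower), and 3 of 88 had an unadjusted p under 0.05. PL2-3 against CpG gave none either, where 3.2% of all genes were called (1.6% higher and 1.6% lower), and again 3 had an unadjusted p under 0.05. CpG against anti-IgM gave 1, Uqcrfs1, where 6.41% of all genes were called (2.57% higher and 3.84% lower; with the replicate number as a block 2 members were called, 1 in each direction), and 11 had an unadjusted p under 0.05. Uqcrfs1 was higher with CpG by 0.49 ± 0.14 (adjusted p = 0.048), and every CpG array exceeded every anti-IgM array. The call lay at the threshold and was lost with any array of the 2 groups left out (0.44 to 0.60 over all alternatives). Among members not called, Ndufa13 had -0.65 ± 0.20 (limma adjusted p = 0.0687), Ndufb6 -0.66 ± 0.21 (0.0748) and Ndufab1 0.40 ± 0.13 (0.0851) in the same comparison. For Ndufb6 the probe sets disagreed. The one used gave 0.59 with anti-IgM and -0.07 with CpG against media. Another, nearly as bright (mean signal 17039 against 17346), gave 1.02 with anti-IgM and 0.96 with CpG, without a test. The median difference over the members was 0.07 for PL2-3 against anti-IgM, -0.01 for PL2-3 against CpG and 0.10 for CpG against anti-IgM.

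Genes that serve the respiratory chain were followed in 8 lists that share no gene with the members. The mitochondrial ribosome, which makes the subunits encoded by mitochondrial DNA, was followed by its Mrpl and Mrps genes: of these 76, 29 rose with anti-IgM, 46 with CpG, 43 with PL2-3 and 61 with anti-IgM+CpG (40 actin-based), and none fell. The anti-IgM count was 14 without media replicate 3, 16 without anti-IgM replicate 1 and 12 without anti-IgM replicate 3, and the PL2-3 count was 25 without media replicate 3 and 28 without PL2-3 replicate 3. The list medians were 0.47, 0.69, 0.59 and 0.95. Mrpl12 rose by 1.40 ± 0.21, 1.64 ± 0.21, 1.57 ± 0.21 and 2.22 ± 0.21. Of 21 import and chaperone genes, which carry nuclear-encoded subunits into mitochondria and fold them, 13, 14, 17 and 17 rose and 1 fell (with CpG). With each array of a comparison left out in turn, the rises were 12 to 13, 11 to 14, 12 to 14 and 16 to 19. Timm8a1, a chaperone of the intermembrane space, rose by 1.89 ± 0.16, 2.17 ± 0.16, 2.00 ± 0.16 and 2.54 ± 0.16, and the matrix chaperonin Hspd1 by 1.12 ± 0.14 to 1.37 ± 0.14.

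Assembly factors of the other complexes rose in part, 8, 12, 9 and 15 of 36, with 0, 2, 1 and 2 lower. Sco2, a copper chaperone for complex IV, rose by 1.51 ± 0.17, 1.48 ± 0.17, 1.67 ± 0.17 and 1.72 ± 0.17. Uqcc2, an assembly factor of complex III, rose by 1.29 ± 0.16, 1.55 ± 0.16, 1.48 ± 0.16 and 1.73 ± 0.16. Cox20, which helps insert a complex IV subunit, changed by -0.79 ± 0.21 with CpG, -0.80 ± 0.21 with PL2-3 and -0.62 ± 0.21 with anti-IgM+CpG. In the list of cytochrome c and coenzyme Q synthesis, 2, 1, 3 and 4 of 13 rose and 2, 3, 3 and 3 fell. The rises were 15.4%, 7.69%, 23.1% and 30.8% of the list, against 10.1%, 13.1%, 12.4% and 17.2% of all genes. Of all genes, 9.32%, 16.9%, 13.5% and 24.8% fell. A single array left out moved each of the list's counts by at most 2. Coq4 rose by 0.70 ± 0.15 to 1.04 ± 0.15, while the kinase-like Coq8a changed by -0.76 ± 0.24, -1.66 ± 0.24, -1.13 ± 0.24 and -1.67 ± 0.24. Cytochrome c, Cycs, rose with anti-IgM (0.46 ± 0.15) and anti-IgM+CpG (0.51 ± 0.15). With PL2-3 Cycs lay at the threshold (0.43 ± 0.15, limma adjusted p = 0.0498), with groups that overlapped and 2 of 3 same-numbered pairs higher.

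Of 20 regulators of mitochondrial genes, 2, 3, 2 and 3 rose (10%, 15%, 10% and 15%, against 10.1%, 13.1%, 12.4% and 17.2% of all genes) and 2, 4, 0 and 2 fell. With anti-IgM the rises were 1 without media replicate 3, and the falls 0 without media replicate 1 or anti-IgM replicates 1 or 2 and 1 without media replicates 2 or 3. With CpG the rises were 1 without media replicate 3 or CpG replicates 1 or 3, and the falls 0 without CpG replicate 3, 1 without media replicate 1 or CpG replicate 1 and 2 without CpG replicate 2. With anti-IgM+CpG the rises were 1 without media replicate 3 or anti-IgM+CpG replicate 2. Pprc1, a coactivator of the PGC-1 family, rose by 1.35 ± 0.23, 1.44 ± 0.23, 1.36 ± 0.23 and 1.30 ± 0.23, and Ppargc1b by 1.13 ± 0.27 with anti-IgM and 1.20 ± 0.27 with PL2-3. Of 18 genes of pyruvate dehydrogenase and the TCA cycle, which supply NADH and succinate, 3, 3, 5 and 8 rose and none fell (6 and 1 actin-based with anti-IgM+CpG), and the PL2-3 count was 2 or 3 without any 1 of the media and PL2-3 arrays. The rises were 16.7%, 16.7%, 27.8% and 44.4% of the 18, against the same shares of all genes as above. Idh3a rose by 1.02 ± 0.18, 1.54 ± 0.18, 1.14 ± 0.18 and 1.39 ± 0.18. Of 6 carrier and VDAC genes 2, 3, 2 and 3 rose. Slc25a5, which exchanges ADP and ATP across the inner membrane, rose by 0.67 ± 0.13 to 0.83 ± 0.13. Of 19 glycolysis and lactate genes 8, 7, 8 and 10 rose and 2, 7, 3 and 7 fell (8 and 4 actin-based with anti-IgM+CpG). The falls were 4 with CpG without media replicate 3 or CpG replicate 3, 1 with PL2-3 and 4 with anti-IgM+CpG without media replicate 3, and 1 with anti-IgM without any 1 of its arrays or of media replicates 1 and 3. Hk2, a hexokinase, rose by 1.43 ± 0.14, 2.38 ± 0.14, 1.97 ± 0.14 and 2.47 ± 0.14, Slc16a1, a lactate transporter, by 1.18 ± 0.21 to 1.54 ± 0.21, and Aldoc changed by -1.20 ± 0.41 to -1.54 ± 0.41.

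**Figure D4:**
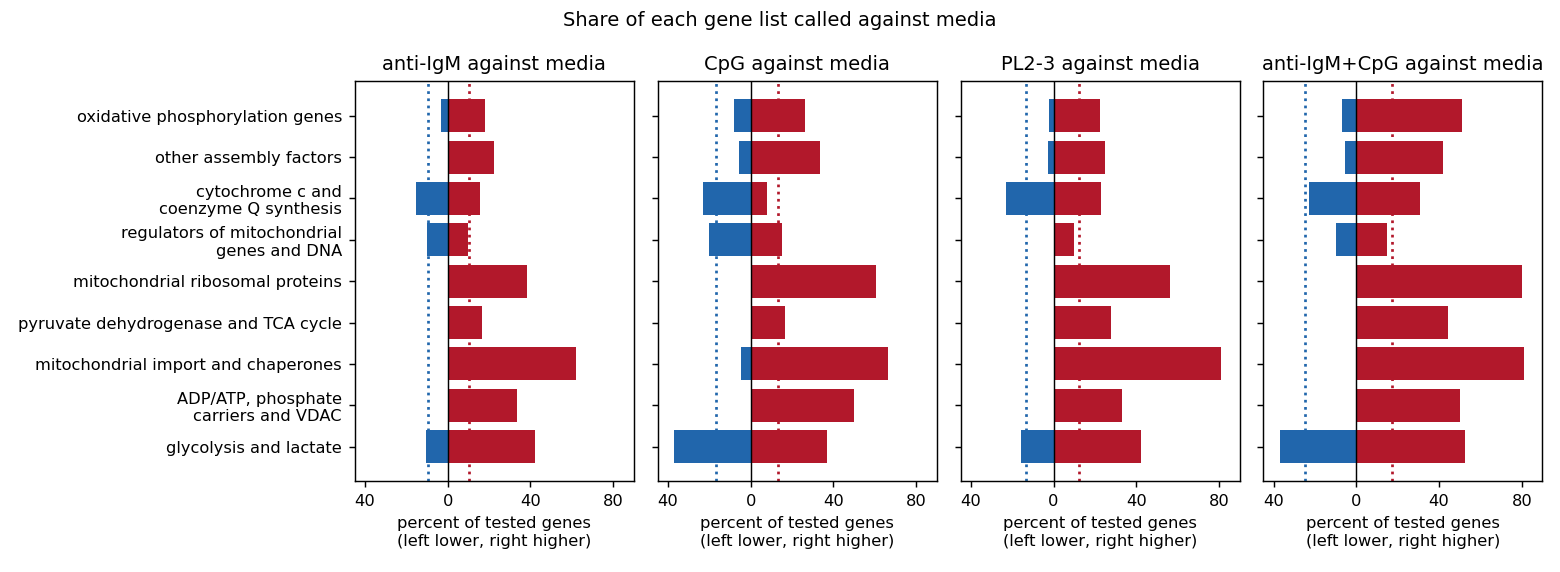
Percent of the tested genes of each list (rows) that were higher (to the right, red) or lower (to the left, blue) against media in the 4 stimuli; dotted lines are the same percents over all genes tested. Mitochondrial ribosomal proteins and import genes reach 38.2% to 81% higher, and oxidative phosphorylation genes 18.2% to 51.1%.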

How the data were processed

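Biotin-labelled RNA was measured on 15 Affymetrix arrays, 3 per group, with the Enzo kit for replicates 1 and 2 and the Ambion kit for replicate 3, per the labels. The deposited values are probe set intensity signals; the submitters' processing notes name MAS5 without a version. They were scaled by the authors so that the mean without the lowest and highest 2% was 1491.9 to 1494.5 on every array, as read from the values. The 64 control probe sets were left out. Of 45037 others, 34945 had 1 symbol, 932 several and 9160 none, and only the 34945 were used.

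The members and the 8 gene lists and markers were chosen with earlier results of these data known. Genes that reached their array's median signal on 3 or more arrays were tested on log2(signal + 75.2), the 20th percentile, with limma 3.58.1 in R 4.3.3 (lmFit, eBayes with trend; 5 groups and labelling kit, 9 residual degrees of freedom), and Benjamini-Hochberg adjusted two-sided p-values under 0.05 were called. The pseudocount makes low genes' changes smaller. Precision is limited by the 3 arrays a group has; an exact test of 3 against 3 cannot go below p = 0.1. The procedure was tested on simulated data. Same-numbered arrays of media, anti-IgM, CpG and PL2-3 deviated together (correlations of 0.12 to 0.68, over 0.1 in 18 of 18 pairs). This pairing of the 12 arrays is read from the data, not from the labels. The kit, which the arrays of replicate 3 share, was not removed first and enters these correlations. Among pairs of different number in these groups, 8 of 36 were over 0.1. With an anti-IgM+CpG array 0 of 12 same-numbered pairs were. A fit with the number as a block was an alternative. Figures were drawn with Python and matplotlib. Named genes were up to 3 called rises and 3 called falls per complex and comparison against media, if each same-numbered pair of arrays moved that way, besides members followed whatever their values (complex II, core subunits and paralog pairs), up to 5 per direction between stimuli, and up to 3 per list and direction. Not all that the rule allows are printed.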

Additional observations from a re-analysis of the deposited data

How the results depend on the processing

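Counts of called members moved by over 1.5 times as follows. Without the labelling term they were 7 for anti-IgM against media (19 in the reported fit), 18 for CpG against media (30), 12 for PL2-3 against media (22), 30 for anti-IgM+CpG against media (51) and 0 for CpG against anti-IgM (1). With the Enzo arrays only they were 4, 19 and 13 for anti-IgM, CpG and PL2-3 against media and 0 for CpG against anti-IgM. With labelling from the actin ratio anti-IgM+CpG against media had 28 and CpG against anti-IgM 5. CpG against anti-IgM also had 2 with quantile normalization, 0 with arrays shifted to the same median, 0 with no filter and 5 without the anti-IgM+CpG group. Leaving out each array gave 4 to 19 members for anti-IgM against media, 14 to 25 for PL2-3 against media and 0 to 1 for CpG against anti-IgM. PL2-3 against anti-IgM and PL2-3 against CpG had no called member by limma under any alternative.

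Shifting arrays to the same median moved the median of all genes from -0.13 to 0.12 with anti-IgM, from -0.21 to 0.15 with CpG, from -0.10 to 0.09 with PL2-3 and from -0.29 to 0.30 with anti-IgM+CpG, and the split of members higher and lower became 18 and 0, 37 and 0, 20 and 1, and 71 and 1. The members' median stayed above that of all genes by 0.25, 0.50, 0.31 and 0.74. Quantile normalization made that distance 0.05, 0.20, 0.12 and 0.20, with 12 and 4, 22 and 7, 20 and 3, and 30 and 8 called. The shares of all genes called higher and lower with shifted arrays or quantile normalization are not given here. These counts are therefore not a result about the members in particular. Ndufb11, anti-IgM+CpG against media, reversed to 0.030 with arrays shifted to the same median. Of 73 gene and comparison pairs named by size, 23 were called under every alternative and 50 lost the call at least once; the cause was not tested.

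With the replicate number as a block in place of the kit the counts were 18, 30, 23 and 49 against media, 0 and 0 for PL2-3 against anti-IgM and CpG, and 2 for CpG against anti-IgM. Besides the calls of Ndufaf3 and Cox6a2 with anti-IgM, and of Cox6b2 with anti-IgM+CpG, whose arrays the numbers do not pair, the block changed no call among the 73 pairs.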
